A study of Mus musculus with 9 samples.

Results

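Polysome-bound mRNA of 117 zinc finger protein genes was compared across 3 stages of mouse oocyte maturation: germinal vesicle (GV, the arrested oocyte), metaphase I (MI) and metaphase II (MII, the mature egg). Mice had been given PMSG, a hormone that makes follicles grow, and 48 h later hCG, the ovulation signal, for 0 h (GV), 4 h (MI) or 14 h (MII). The MI samples were grouped by their title and stage label; their short description carries the code pGVB, which the labels do not explain, so the stage of these samples rests on the stage label. Each stage had 3 arrays, labelled as biological replicates, and the labels name no strain, age, genotype or number of pooled oocytes. Each array gave 1 fluorescence intensity for each of 45101 probe sets. The genes were selected on measured values: a symbol made of Zfp and a number, and a mean intensity of 100 or more over the 9 arrays in the gene's brightest probe set with 1 symbol. Of 304 such symbols among 18193 genes, 117 were at or above that minimum and 187 were below it. Just inside the minimum lay Zfp384 (mean 108), Zfp111 (106) and Zfp251 (104), and just outside it Zfp790 (99.8), Zfp763 (99.3) and Zfp82 (95.8).

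A zinc finger is a short loop of protein folded around a zinc ion, and most proteins of this family carry a row of them that reads DNA sequence. Many also hold a KRAB domain, which recruits the co-repressor TRIM28 and through it enzymes that methylate histone H3 and silence the bound site, often a retrotransposon. Others bind RNA, ribosomes or the spindle. A fully grown oocyte makes almost no new RNA until after fertilisation, and stored mRNAs are known to move onto or off ribosomes as it matures. Only polysome-bound mRNA was arrayed, so a change in an mRNA's amount and in its share on ribosomes cannot be told apart, nor can fewer cells of a type and less RNA per cell.

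The promoters of 4 members are shown as examples of rising and falling genes: among called members with 1 RefSeq promoter, these had the smallest adjusted p between GV and MII in each direction. Each is the 250 bases before a gene's start in RefSeq (GRCm38.p6), written 5′ to 3′ in the direction of the gene. Capitals mark matches on either strand to 6 motifs. These were CCAAT, bound by NF-Y, the TATA box TATAAA, the GC box GGGCGG, the E-box CACGTG, the ETS-type site CCGGAAG, and the letters ACTACAA, which form part of the ZNF143 site. None of the 6 holds another. The NRF1 site and a palindrome centred on CGCG were searched too, and were left out after their matches had been seen, for their length and not for what they showed. Their shares are not given here. Zfp606 and Zfp616 were higher at MII.
Zfp606, chr7:12478055-12478304, plus strand: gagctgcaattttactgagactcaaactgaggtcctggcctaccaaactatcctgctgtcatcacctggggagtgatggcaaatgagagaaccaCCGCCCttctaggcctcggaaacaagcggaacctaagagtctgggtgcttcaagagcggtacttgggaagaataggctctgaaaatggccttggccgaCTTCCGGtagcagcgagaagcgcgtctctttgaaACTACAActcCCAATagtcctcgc
Zfp616, chr11:74060647-74060896, plus strand: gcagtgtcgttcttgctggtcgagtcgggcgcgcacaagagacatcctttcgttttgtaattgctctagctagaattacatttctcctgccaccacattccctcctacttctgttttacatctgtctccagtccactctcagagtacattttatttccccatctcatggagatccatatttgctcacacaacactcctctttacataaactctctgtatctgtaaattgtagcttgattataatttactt
Zfp428 and Zfp296 were lower at MII.
Zfp428, chr7:24506837-24507086, plus strand: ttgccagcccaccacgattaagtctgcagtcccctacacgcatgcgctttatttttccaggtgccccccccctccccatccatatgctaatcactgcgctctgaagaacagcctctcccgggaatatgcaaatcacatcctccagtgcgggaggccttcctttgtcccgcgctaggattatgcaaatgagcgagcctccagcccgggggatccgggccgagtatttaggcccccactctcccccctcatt
Zfp296, chr7:19577037-19577286, plus strand: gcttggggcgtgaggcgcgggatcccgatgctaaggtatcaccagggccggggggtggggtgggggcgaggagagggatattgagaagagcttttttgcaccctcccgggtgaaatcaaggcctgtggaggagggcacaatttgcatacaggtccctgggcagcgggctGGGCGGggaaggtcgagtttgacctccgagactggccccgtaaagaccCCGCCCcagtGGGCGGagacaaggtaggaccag
The Zfp606 window held 4 matches, at positions -156 (GGGCGG), -58 (CCGGAAG), -24 (ACTACAA) and -14 (CCAAT) relative to the start. The Zfp296 window held 3 matches to GGGCGG, and the windows of Zfp616 and Zfp428 held none of these letters.

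Of the members, 96 had 1 or more promoters in the RefSeq table, 119 in all, against 32851 promoters of 27025 genes. The larger set had no minimum intensity and was not matched to the members, so differences below are not shown to be particular to zinc finger genes. CCGGAAG was found in 21.0% of member promoters and 6.91% of all promoters, and GGGCGG in 47.1% and 32.7%. CCAAT was present in 43.7% against 33.8%, ACTACAA in 6.72% against 2.81%, CACGTG in 5.88% against 6.02%, and TATAAA in 5.88% against 12.4%. Median GC content was 56.4% in member promoters and 52.4% in all, and the median number of CpG dinucleotides was 12 and 6. Members that rose in MII had 28 promoters from 22 genes, and members with no call had 88 from 71. CCGGAAG was in 4 (14.3%) of the former and 21 (23.9%) of the latter, and GGGCGG in 39.3% and 48.9%. In the same order, CCAAT was in 46.4% and 44.3%, and ACTACAA in 7.14% and 6.82%. CACGTG and TATAAA were each in 7.14% and 5.68%. These shares are descriptions, with no test between groups.

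The arrays carried oocyte RNA. The summed intensity of 12 oocyte markers was 61617 to 65266 at GV, 53340 to 58867 at MI and 30898 to 39520 at MII. Between GV and MII, 7 of these 12 fell and 3 rose, and the part of this shift in the changes of the zinc finger genes was not tested. The sum of 12 granulosa and cumulus markers lay between 284 and 988 on 8 arrays and was 1280 on MI 3. MI 3 stood apart in its granulosa and cumulus markers, with 2 of 12 under an intensity of 16 there and 6 to 9 under it on each of the other arrays. The 95th percentile of all intensities ranged from 1126 to 1458, and array medians from 12.4 to 13.2. Granulosa and cumulus sums were 811 to 913 at GV, 862 to 1280 at MI and 284 to 627 at MII. Much of these sums came from Cyp11a1, with means of 531 at GV, 530 at MI and 163 at MII. From GV to MI, 8 of the 12 had a change above 0. One of them, Tnfaip6, read 45.8 to 77.4 on the MI arrays and 2.44 to 4.86 on the GV arrays, so its MI signal was not confined to MI 3. Of 7 markers of blood, immune and endothelial cells, 4 to 6 were under an intensity of 16 on each array. Their sums were 170 to 331 at GV, 81.8 to 498 at MI and 621 to 822 at MII, most of it at MII from Pecam1 (mean 661), and the part of these signals in the changes of the zinc finger genes was not tested.

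The median zinc finger gene had more polysome-bound signal at each later stage. The median over all genes at or above the same minimum intensity was lower at MII, by an amount that depended on array scaling. The median change of the 117 members was 0.25 from GV to MI, 0.34 from MI to MII and 0.50 from GV to MII, as log2 differences of intensity + 16. Over the 7543 genes with a mean intensity of 100 or more, those medians were 0.02, -0.21 and -0.25, and over all 18193 genes 0.01, -0.02 and -0.03. The 7543 genes share the minimum with the members and were not matched to them in brightness: on the GV arrays their median log2 intensity was 8.66 to 8.86, against 7.21 to 7.95 for the members. The member median from GV to MII was between 0.48 and 0.70 under 3 other scalings of the arrays. Quantile scaling moved the MI to MII median of the bright genes to -0.01 and that of the members to 0.55. From GV to MII the median of the bright genes was -0.07 with quantile scaling. It was -0.05 with arrays set to 1 common 95th percentile and -0.27 with arrays centred on their median. Between GV and MII, 81 of 117 members (69.2%) had a change above 0, against 44.5% of the 7543 genes and 47.9% of all genes. Without the minimum, 185 of 304 zinc finger genes (60.9%) did. The medians of these 304 were 0.11 from GV to MI, 0.07 from MI to MII and 0.16 from GV to MII. MII was the stage with the highest mean for 65 members, MI for 33 and GV for 19. These stage counts were not computed for other genes, and they include 17 members that reached the minimum through MII.

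The arrays of a stage differed in their median member. Median log2 member values were 7.95, 7.64 and 7.21 at GV, 8.04, 8.34 and 7.40 at MI, and 8.41, 8.18 and 8.29 at MII. All 3 MII arrays lay above all 3 GV arrays, whereas MI overlapped both stages because of MI 3 on one side and MI 2 on the other. MI 3, the array with the most granulosa and cumulus signal, had the lowest MI median. Without MI 3 the median member change became 0.44 from GV to MI and 0.17 from MI to MII. The part of the granulosa and cumulus signal in these values was not tested.

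**Figure D1:**
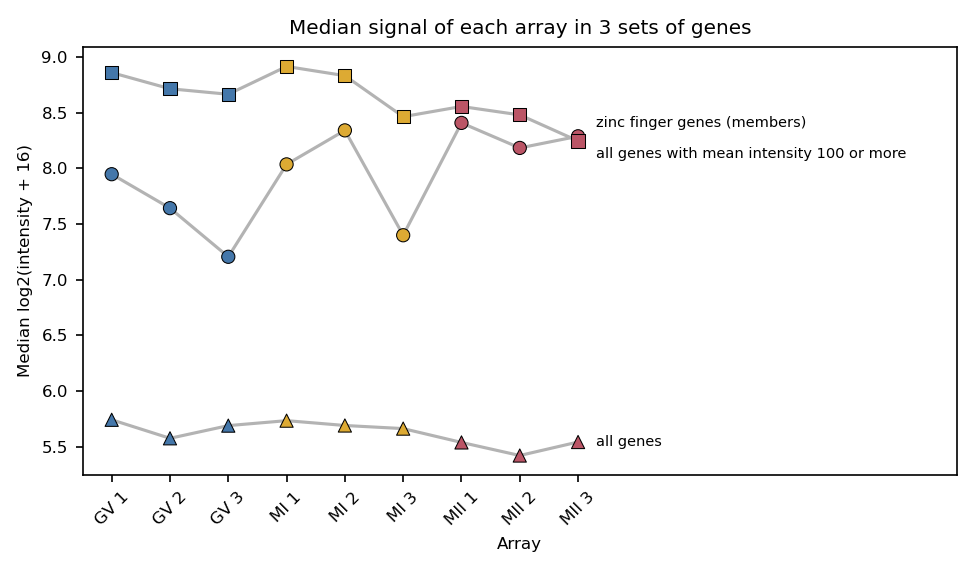
Median log2(intensity + 16) on each of the 9 arrays (x axis) for the 117 zinc finger genes (circles), the 7543 genes with a mean intensity of 100 or more (squares) and all 18193 genes (triangles), coloured by stage. The zinc finger median was between 8.18 and 8.41 on the MII arrays and between 7.21 and 7.95 on the GV arrays, while the squares were lower at MII than at GV.

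Membership did not need a signal at every stage. A mean of 100 or more was reached at all 3 stages by 76 members, and on all 9 arrays by 37. For 27 members the mean of the other 2 stages, without the brightest stage, was under 100, and in 17 of these the brightest stage was MII. Among the 27, 5 were called higher at MII than at GV (Zfp423, Zfp597, Zfp612, Zfp654 and Zfp760). Those called higher at MII than at MI were 4 (Zfp423, Zfp612, Zfp618 and Zfp692), and 1, Zfp428, was called lower. Such members entered through the stage where they were high, so their calls are not separate from the selection. Counted separately, 18 members would fall under 100 without their brightest array. In 4 members 1 array was over 5 times the next. Zfp180 read 1616 on MII 1 and at most 18.0 elsewhere, and Zfp319 read 3234 on GV 2 and at most 289 elsewhere. Zfp653 (2418 on GV 3) and Zfp61 (1313 on MI 2) were the others, and none of these 4 passed the test.

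**Figure D2:**
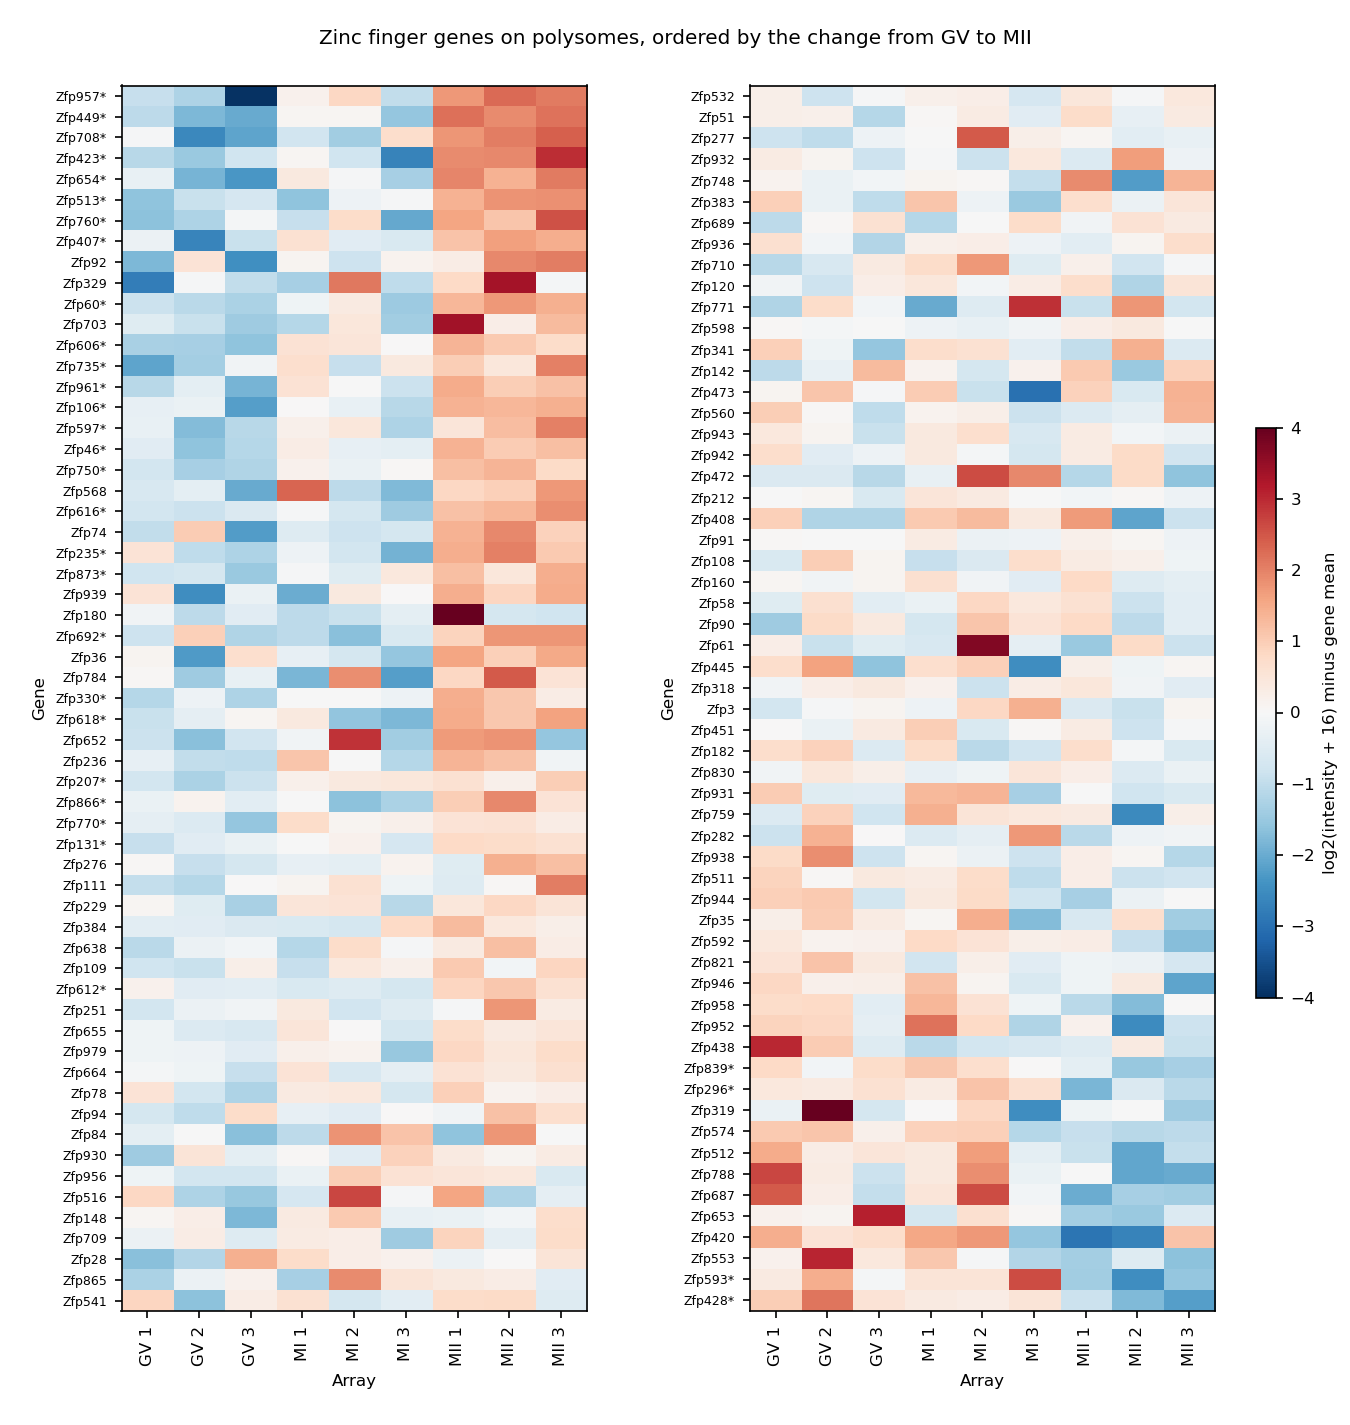
Each row is 1 of the 117 zinc finger genes and each column 1 array; colour gives log2(intensity + 16) minus the gene's mean over the 9 arrays, cut at 4 either way. Rows run from the largest rise to the largest fall between GV and MII, a star marks the 31 genes called in a comparison with MII, and most starred genes lie at the top, red on the 3 MII arrays.

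Of the 117 members, 31 passed the test in at least 1 comparison with MII and 86 in none. The matching share of other genes was not computed, so 31 cannot be called high or low. Shares for each comparison alone are given below. A gene was called at an adjusted p under 0.05 in limma's moderated test, adjusted with the Benjamini-Hochberg method over all 18193 genes. Of the 27 that rose, 8 were called against both GV and MI (Zfp423, Zfp449, Zfp513, Zfp616, Zfp60, Zfp612, Zfp46 and Zfp750), 15 against GV but not MI and 4 against MI but not GV. All 4 that fell were called against both. These comparisons share the MII arrays, so the calls are not independent. The fit held no term for the replicate number. With such a term, Zfp593 passed against neither stage and Zfp428 did not pass against MI. The calls of Zfp692, Zfp618 and Zfp866 against MI, and of Zfp760 and Zfp597 against GV, were lost too. Over the 3 stages together, the F test called 20 members, or 17.1%, against 26.1% of genes at or above the minimum and 11.7% of all genes. Leaving out MII 1 lowered this count to 12, leaving out MII 2 to 10, and leaving out MII 3 to 8.

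Between GV and MI no member passed the test, nor did any of the 18193 genes (0% called). At an unadjusted p under 0.05 there were 13 members in limma, and the smallest adjusted p was 0.195. The 3 MI arrays all lay above the 3 GV arrays for 9 members and below them for 5. Among genes at or above the minimum, those shares were 8.33% above and 7.9% below, so the 9 and 5 of 117 are near the background.

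The lowest p-values between GV and MI belonged to Zfp606, Zfp207, Zfp750, Zfp770 and Zfp821. Zfp606 had a difference of 1.76 (SE 0.25, adjusted p = 0.195). Zfp207, whose protein (BuGZ) binds microtubules and helps load the checkpoint protein BUB3 on kinetochores, had a difference of 1.30 (SE 0.26, adjusted p = 0.333). Zfp821 was the one with a lower MI value, -1.02 (SE 0.33, adjusted p = 0.571), with intensities of 1034, 1572 and 917 at GV, 402, 829.7 and 507 at MI, and 624, 597 and 436 at MII. Zfp821 thus had its 3 GV arrays above its 3 MI arrays and above its 3 MII arrays, and did not pass the test against MII either (adjusted p = 0.079). Zfp750 and Zfp770 had differences of 1.07 and 1.16 (adjusted p = 0.392 and 0.514).

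Between MI and MII, 12 members rose and 4 fell. Among genes at or above the minimum, 5.21% rose and 15.6% fell, and among all genes 2.52% and 6.83%. The members thus had more rises than falls where other genes had more falls than rises. Rises made up 27.0% of all calls and 75% of the member calls. These shares were 41.7% and 80% after quantile scaling, and 40.7% and 80% with arrays set to 1 common 95th percentile. Of the 76 members with a mean of 100 or more at every stage, 7 rose and 1 fell, and of the 5428 genes that met the same condition 5.23% rose and 13% fell.

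Single arrays mattered to these counts, and each array named as left out here and later was left out alone. The 12 rises became 8 when MI 3 was left out, 7 when MI 2 was, 6 for MII 1, 5 for MII 2 and 3 for MII 3. The 4 falls became 2 without GV 1 or without MI 1, 1 without MII 2 or without MII 3, and 0 without MI 2. Zfp616 and Zfp612 were the risers called in all 9 fits that each left out 1 array, and no faller was. The matching share of other genes was not computed here either. The GV and MI means of Zfp612 were 85.1 and 60.2, so its membership rests on its MII signal.

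Between GV and MII, 23 members rose and 4 fell. Among genes at or above the minimum, 11.8% rose and 20.3% fell, and among all genes 5.52% and 8.94%. In 22 of the 23 risers the MI mean lay between the GV and MII means. That share was not computed for other risers, so it is not shown to be particular to zinc finger genes. Of the 76 members with a mean of 100 or more at every stage, 15 rose and 1 fell, against 12.6% and 16.7% of the 5428 genes that met that condition. The 23 rises became 15 without MII 3. The 4 falls became 2 without GV 2, without MI 1 or without MII 2, and 1 without GV 1, without GV 3 or without MII 3. In all 9 fits that each left out 1 array, 13 risers and 1 faller were called. The matching share of other genes was not computed, so these counts cannot be called high or low. Among them, Zfp423 and Zfp654 reached the minimum through MII and the faller, Zfp428, through GV. The calls of these genes are not separate from the selection.

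**Figure D3:**
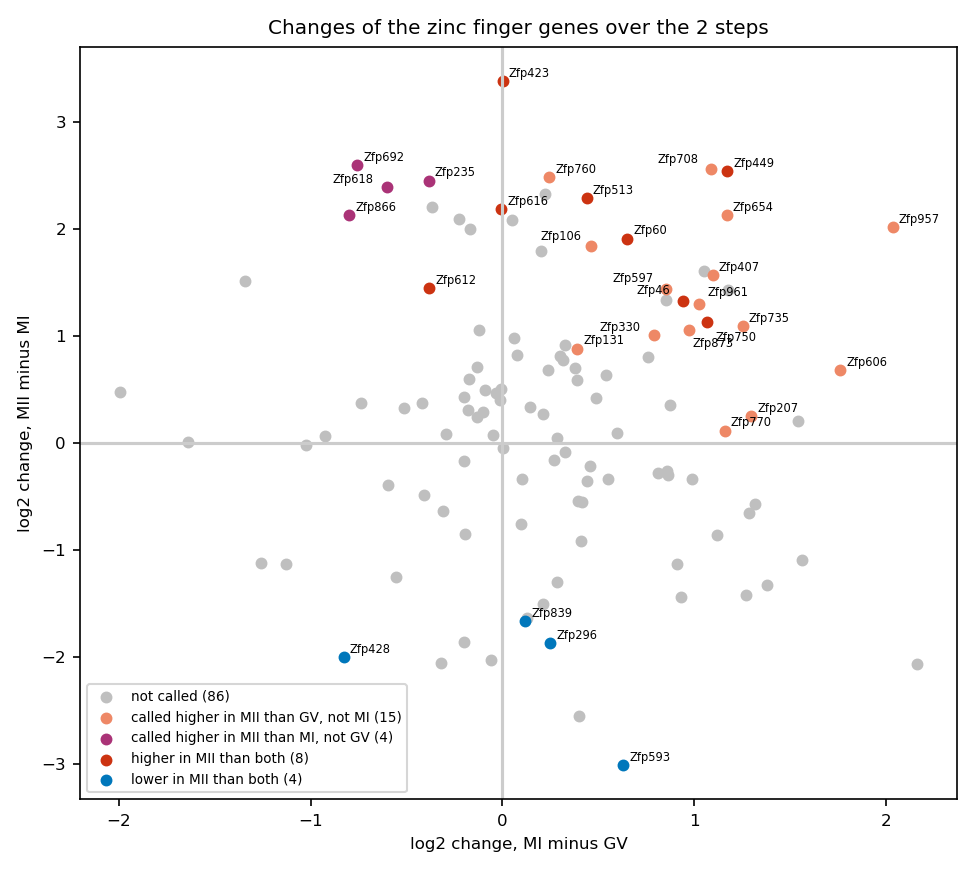
Log2 change from GV to MI (x axis) against that from MI to MII (y axis) for the 117 members, each a point coloured by its calls against MII; the MI arrays enter both axes with opposite sign. The 8 genes called against both earlier stages lie between 1.13 and 3.38 on the y axis, and Zfp606, Zfp207 and Zfp770 lie far to the right with y values of 0.68, 0.25 and 0.12.

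The smallest p-value of the set belonged to Zfp606, a KRAB zinc finger gene. Its intensities were 51.8, 50.8 and 38.7 at GV, 229.7, 217 and 153 at MI, and 411, 325 and 258 at MII. The 3 stages did not overlap, and each MI array was above every GV array and below every MII array. The GV mean of 47.1 ± 7.31 (SD, n = 3) compared with 331 ± 76.8 at MII. The rise from GV to MII was 2.44 (SE 0.25, adjusted p = 0.00132), and with any 1 array left out the adjusted p was at most 0.00682. A second Zfp606 probe set, dimmer at a mean of 54.9, had differences of 0.14 from GV to MI and 1.27 from GV to MII. Its arrays overlapped between the stages, so it did not show the 3 separate steps.

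Zfp449, a SCAN-domain zinc finger gene, was the member with the second largest rise from GV to MII. Its intensities were 235, 134 and 113 at GV, 537, 542 and 163 at MI, and 2405, 1916 and 2332 at MII. All MII arrays stood far above the other 6, and MI 3 lay within the range of the GV arrays. The rise was 3.72 (SE 0.47, adjusted p = 0.00247) from GV and 2.54 (SE 0.47, adjusted p = 0.0159) from MI. The call against MI was lost without MII 3, with an adjusted p of up to 0.0546.

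Zfp750 encodes a regulator known from the differentiation of the epidermis. It read 242, 153 and 168 at GV, 462, 335 and 421 at MI, and 961, 1069 and 708 at MII. The stages formed 3 separate steps with no overlap. It rose by 2.20 (SE 0.26, adjusted p = 0.00201) from GV and by 1.13 (SE 0.26, adjusted p = 0.0343) from MI, the latter kept in 3 of the 9 fits and lost without GV 3, MI 1, MI 2, MI 3, MII 1 or MII 2, with an adjusted p of up to 0.112.

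Zfp46, another KRAB gene, gave 637, 276 and 385 at GV, 1081, 701 and 669 at MI, and 2321, 1775 and 2034 at MII. It was one of the brightest members, and its MII arrays were above all the others. The rise from GV was 2.27 (SE 0.34, adjusted p = 0.00434). That from MI was 1.33 (SE 0.34, adjusted p = 0.0473), lost without GV 3, MI 1, MI 2, MI 3, MII 1, MII 2 or MII 3, with an adjusted p of up to 0.141.

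Zfp513, a gene linked to retinal disease, measured 148, 253 and 302 at GV, 149.7, 421 and 468 at MI, and 1299, 1735 and 1773 at MII. GV and MI overlapped, and the 3 MII arrays were all above both. Its rise was 2.29 (SE 0.45, adjusted p = 0.0188) from MI and 2.73 (SE 0.45, adjusted p = 0.00639) from GV. The call against MI was lost without MII 2 or MII 3, with an adjusted p of up to 0.0644.

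Zfp616 had a GV to MI difference of -0.01 (adjusted p = 0.999) and a rise at the second step. Its arrays read 233, 210.3 and 264 at GV, 382, 237 and 139 at MI, and 926, 1022 and 1496 at MII. The change from MI was 2.19 (SE 0.36, adjusted p = 0.0101), and every fit with 1 array left out kept the call, with an adjusted p of at most 0.0384. Against GV the change was 2.18 (SE 0.36, adjusted p = 0.00661).

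Zfp60, a KRAB gene, had intensities of 109.8, 90.4 and 78.1 at GV, 185, 275 and 67.3 at MI, and 553, 737 and 589.6 at MII. MI spanned the GV range and more, and MII lay above both. It rose by 2.56 (SE 0.43, adjusted p = 0.00695) from GV, in every fit, and by 1.91 (SE 0.43, adjusted p = 0.0307) from MI. The latter call was lost without GV 2, MI 1, MII 1, MII 2 or MII 3, with an adjusted p of up to 0.0909.

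Zfp612 was dimmer and had a small spread. It gave 115, 68.8 and 71.4 at GV, 59.5, 65.5 and 55.5 at MI, and 193, 228 and 159.7 at MII, with MII above the other 2 stages. The rise was 1.45 (SE 0.24, adjusted p = 0.0107) from MI, kept in every fit with 1 array left out, and 1.07 (SE 0.24, adjusted p = 0.0227) from GV, lost without GV 2, GV 3, MII 1 or MII 2, with an adjusted p of up to 0.0725. Its other probe set, at a mean of 99.9, had a difference of -0.02 from MI to MII and did not share the rise.

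**Figure D4:**
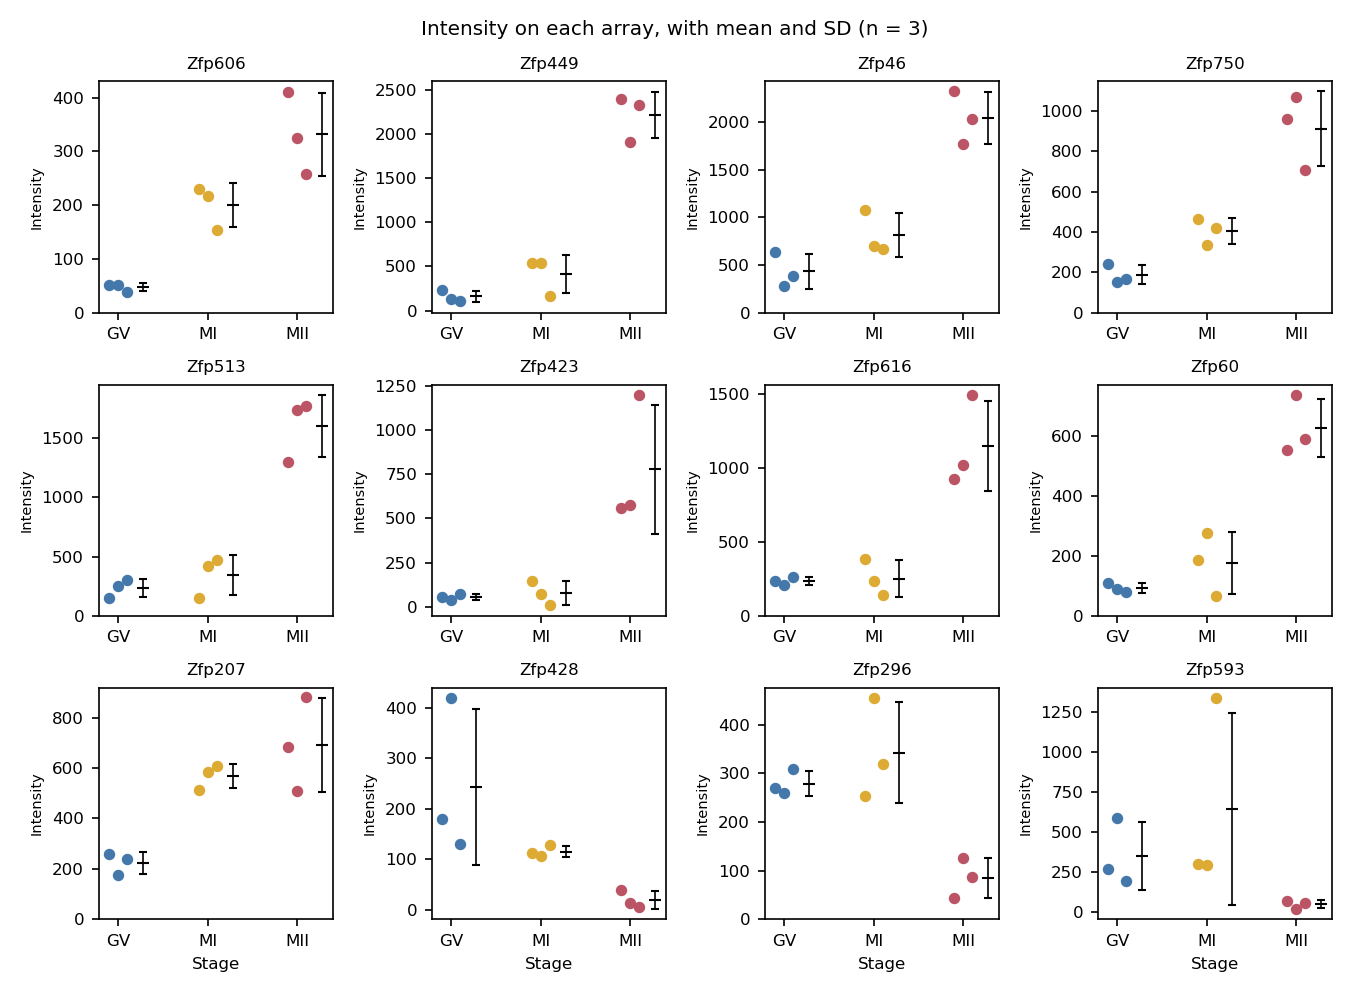
Intensity (y axis, linear, from 0) on each array by stage for 9 risers and 3 fallers described in the text and chosen after their values were seen; coloured points are arrays and the black bar is the mean ± SD of 3 arrays. In the 9 risers every MII array lies above every GV array, and in the 3 fallers (Zfp428, Zfp296 and Zfp593) every MII array lies below every GV array. Zfp423 reached the minimum intensity through MII and Zfp428 through GV.

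Among the 15 members called against GV and not against MI, Zfp957 changed most. Its intensities were 314, 253 and 24.9 at GV, 697, 1097 and 299 at MI, and 2080.2, 2986 and 2616 at MII, so the lowest GV array differed from the highest by over 10 times. The rise was 4.05 (SE 0.80, adjusted p = 0.0131), with an adjusted p of at most 0.0448 with any 1 array left out. A second Zfp957 probe set had a mean of 529 and a GV to MII difference of -0.37. The 2 probe sets of this gene disagree, and which one follows the gene's mRNA was not tested.

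Zfp654 rose by 3.31 (SE 0.60, adjusted p = 0.00976), from 28.1 ± 34.0 to 353 ± 87.0 (SD, n = 3). Its MI mean was 76.0, so its membership rests on its MII signal. Its probe set carries the suffix given to probe sets shared by several transcripts, so its reading may include other transcripts. Zfp873 rose by 2.03 (SE 0.37, adjusted p = 0.00965) and read 139, 149.7 and 80.7 at GV, 246, 179 and 349 at MI, and 603, 352 and 718 at MII. Both genes were called in every fit with 1 array left out.

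Zfp407, whose protein is known to control glucose transporter expression, read 231, 30.5 and 139 at GV, 426, 193 and 172 at MI, and 628, 888 and 772 at MII. The GV arrays were spread from 30.5 to 231 and the MII arrays did not overlap them. Its rise of 2.67 (SE 0.61, adjusted p = 0.0229) was lost without GV 3, MII 1, MII 2 or MII 3, with an adjusted p of up to 0.0703. Zfp330, which encodes a nucleolar protein, rose by 1.80 (SE 0.37, adjusted p = 0.0158), a call lost without GV 1, GV 3, MII 1 or MII 2, with an adjusted p of up to 0.0553.

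Zfp760, Zfp597, Zfp735 and Zfp770 also rose against GV, and each call was lost without at least 1 array. Of these, Zfp760 and Zfp597 reached the minimum intensity through their MII signal. Zfp760 rose by 2.73 (SE 0.74, adjusted p = 0.044) and was called in 2 of the 9 fits. It was lost without GV 1, GV 2, GV 3, MI 1, MII 1, MII 2 or MII 3, with an adjusted p of up to 0.139. Zfp597 rose by 2.30 (SE 0.59, adjusted p = 0.0364) and was lost without GV 2, GV 3, MI 1, MII 2 or MII 3, with an adjusted p of up to 0.116. Its second probe set, at a mean of 69.3, had a difference of 1.50. Zfp735 rose by 2.35 (SE 0.65, adjusted p = 0.0481), a call lost without GV 1, GV 2, MI 1, MI 3, MII 1, MII 2 or MII 3, with an adjusted p of up to 0.148. Zfp770 rose by 1.28 (SE 0.35, adjusted p = 0.0445), lost without GV 2, GV 3, MI 1, MI 2, MI 3, MII 1, MII 2 or MII 3, with an adjusted p of up to 0.116, and its second probe set had a difference of 1.67.

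A group of 4 members rose from MI and did not pass the test against GV. In Zfp692, Zfp235, Zfp618 and Zfp866 the MI mean was the lowest of the 3 stages. Of these, Zfp692 and Zfp618 reached the minimum intensity through their MII signal. Zfp692 read 42.2, 184 and 29.1 at GV, 34.0, 16.3 and 51.5 at MI, and 176, 339.6 and 337 at MII, and GV 2 alone among the GV arrays lay in the MII range. The rise of Zfp692 from MI was 2.60 (SE 0.58, adjusted p = 0.03), lost without MI 1, MI 2, MII 2 or MII 3, with an adjusted p of up to 0.102. Zfp235 read 287, 88.0 and 73.1 at GV, 164, 109 and 40.2 at MI, and 555, 828 and 415 at MII, and GV 1 was the high one. It rose by 2.45 (SE 0.59, adjusted p = 0.0382), and the call was lost without GV 2, MI 1, MI 2, MI 3, MII 1, MII 2 or MII 3, with an adjusted p of up to 0.113. Zfp866 rose by 2.13 (SE 0.49, adjusted p = 0.0337), a call kept in 1 of the 9 fits and lost without GV 1, GV 2, GV 3, MI 2, MI 3, MII 1, MII 2 or MII 3, with an adjusted p of up to 0.107.

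The difference between the 2 steps was tested for each member. No member passed in limma, with 16 at an unadjusted p under 0.05 and a smallest adjusted p of 0.136, and 0.544% of genes at or above the minimum passed. The test thus showed no member to change more at one step than at the other, which does not show that the steps were alike.

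Zfp428 was the faller called in every fit against GV. Its intensities were 179.6, 418 and 129 at GV, 111, 105 and 127 at MI, and 38.7, 13.1 and 5.66 at MII. MII was below all other arrays, the MI arrays lay close together, and GV 2 was the highest. The mean of its MI and MII stages was 66.8, so its membership rests on its GV signal. It fell by 2.83 on the log2 scale from GV (SE 0.47, adjusted p = 0.00661). The change from MI was -2.00 (SE 0.47, adjusted p = 0.035), lost without GV 1, MI 1, MI 2, MI 3, MII 2 or MII 3, with an adjusted p of up to 0.112. The log2(intensity + 16) scale understates this fall, since 2 MII arrays were below 16.

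Zfp839, a brighter faller, read 1028, 539 and 983 at GV, 1246, 949 and 594 at MI, and 439, 195 and 224 at MII. All 3 MII arrays were below the other 6. Its changes were -1.55 (SE 0.42, adjusted p = 0.0443) from GV and -1.67 (SE 0.42, adjusted p = 0.0457) from MI. The call against GV was lost without GV 1, GV 3, MI 1, MI 2, MII 2 or MII 3, with an adjusted p of up to 0.132, and the call against MI was lost without the same 6 arrays, with an adjusted p of up to 0.138.

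By role, 7 of the 10 genes listed for RNA, ribosome and spindle functions were members. Of the 7, between GV and MII 2 rose and 1 fell, and the median change was 1.09, against -0.03 over all genes and -0.25 over genes at or above the minimum, where 11.8% rose and 20.3% fell. Zfp207, the kinetochore and spindle protein gene, read 259.5, 175 and 238 at GV, 513, 585 and 608 at MI, and 686, 511 and 884 at MII. The GV arrays were below all others, while MI and MII overlapped. It rose by 1.55 (SE 0.26, adjusted p = 0.00695) from GV, called in every fit, and its change from MI to MII was 0.25 (SE 0.26, adjusted p = 0.683).

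Zfp106 encodes an RNA-binding protein of motor neurons and muscle. Its arrays gave 321, 334 and 75.4 at GV, 409, 328 and 177 at MI, and 1081, 1045 and 1098 at MII. The 3 MII values were nearly equal and above the rest, and GV 3 was the lowest. It rose by 2.30 (SE 0.54, adjusted p = 0.0251) from GV, lost without MII 1, MII 2 or MII 3, with an adjusted p of up to 0.0739.

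Zfp593, the orthologue of a factor that helps export the large ribosomal subunit, fell. It read 269, 591 and 194 at GV, 301, 298 and 1334 at MI, and 68.5, 23.9 and 60.2 at MII. MII was below both other stages, and MI 3 was more than 4 times MI 1 and MI 2. Its change was -3.01 (SE 0.66, adjusted p = 0.0274) from MI, lost without MI 2, MII 1, MII 2 or MII 3, with an adjusted p of up to 0.0843. Against GV the change was -2.38 (SE 0.66, adjusted p = 0.0474), called in 1 of the 9 fits and lost without GV 1, GV 2, GV 3, MI 1, MI 2, MII 1, MII 2 or MII 3, with an adjusted p of up to 0.14. Its probe set has the suffix for probes that may cross-hybridise, as do those of Zfp420, Zfp771 and Zfp931.

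The other 4 members of that list did not pass any test. Zfp598, the ubiquitin ligase that marks collided ribosomes, was also bright, with 1014 ± 44.5 at GV, 881 ± 53.9 at MI and 1201 ± 167 at MII (SD, n = 3). Zfp36 (tristetraprolin), which binds AU-rich elements and speeds mRNA decay, had a GV to MII change of 1.84 (SE 0.71, adjusted p = 0.145). Zfp638 had 1.09 and Zfp830 -0.37 (adjusted p = 0.24 and 0.569). For Zfp830, 2 other probe sets, with means of 359 and 125, had differences of the opposite sign, 0.35 and 0.60.

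Of 24 genes listed for chromatin, transcription and pluripotency, 22 were measured and 11 were members. Between GV and MII 2 rose, 1 fell and the median change was 0.48, beside 11.8%, 20.3% and -0.25 for genes at or above the minimum. Between MI and MII, again, 2 rose and 1 fell, with a median of 0.08, beside 5.21%, 15.6% and -0.21. The risers between MI and MII were Zfp423 and Zfp618, which reached the minimum intensity through MII. Zfp423, a regulator of fat cell and cerebellar precursors, read 56.1, 40.1 and 73.8 at GV, 148, 74.6 and 8.58 at MI, and 561, 576 and 1199 at MII. GV and MI were low on all 6 arrays, and all 3 MII arrays were far above them. It rose by 3.38 (SE 0.66, adjusted p = 0.0188) from MI, lost without MI 2 or MII 3, with an adjusted p of up to 0.0658, and by 3.39 (SE 0.66, adjusted p = 0.0124) from GV, called in every fit.

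Zfp131, a BTB-domain transcription factor gene, gave 576, 806 and 923 at GV, 1107, 1269.7 and 694 at MI, and 1945, 1868 and 1721 at MII. It was high at every stage, and the MII arrays were above all others. It rose by 1.27 (SE 0.29, adjusted p = 0.0219) from GV, lost without GV 1, GV 2, MII 1, MII 2 or MII 3, with an adjusted p of up to 0.067. Zfp618, whose protein partners UHRF2 on hydroxymethylated DNA, rose from MI by 2.39 (SE 0.57, adjusted p = 0.0369). That call was kept in 1 of the 9 fits and lost without GV 1, GV 2, GV 3, MI 2, MI 3, MII 1, MII 2 or MII 3, with an adjusted p of up to 0.119. Its 3 other probe sets, with means between 65.9 and 78.3, had differences of 0.23, -0.11 and -0.06 from MI to MII.

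Zfp296, a gene of pluripotent cells and germ cells, fell at MII. It read 269, 259 and 309 at GV, 253, 455 and 320.4 at MI, and 43.8, 126 and 86.2 at MII. GV and MI overlapped, and all 3 MII arrays were below both. The change was -1.87 (SE 0.35, adjusted p = 0.0167) from MI, lost without MI 2, with an adjusted p of up to 0.0597, and -1.62 (SE 0.35, adjusted p = 0.0189) from GV, lost without GV 1, GV 2, GV 3 or MII 3, with an adjusted p of up to 0.0622.

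The other 7 members of this list had no call. Zfp91, a ubiquitin ligase gene, was bright at every stage, with 1525 ± 50.7 at GV, 1495 ± 341 at MI and 1564 ± 233 at MII (SD, n = 3). Zfp592, Zfp687 and Zfp532 encode related proteins of 1 chromatin complex. Their GV to MII changes were -1.01, -2.15 and 0.48 (adjusted p = 0.221, 0.198 and 0.509). Zfp384, Zfp148 and Zfp451 had 1.11, 0.60 and -0.24 (adjusted p = 0.153, 0.642 and 0.837). For Zfp148, 2 other probe sets, with means of 271 and 132, had larger GV to MII differences of 2.22 and 2.07, and on both every MII array was above every GV array. The pluripotency gene Zfp42 (Rex1) was under the minimum, with a mean of 10.7.

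Of 13 KRAB genes listed for known repeat or imprint targets, 12 were measured and 5 were members. Between GV and MII 2 of the 5 rose, 0 fell and the median change was 2.19. Over genes at or above the minimum, 11.8% rose, 20.3% fell and the median was -0.25. Zfp708, whose protein binds a retrotransposon family, read 221, 25.1 and 41.9 at GV, 128, 78.1 and 384 at MI, and 825, 1008 and 1287 at MII. All 3 MII arrays were above the others, while MI 3 and GV 1 were the higher arrays of their stages. It rose by 3.65 (SE 0.73, adjusted p = 0.0137) from GV, lost without GV 3 or MII 3, with an adjusted p of up to 0.0511. From MI its change was 2.56 (SE 0.73, adjusted p = 0.0705).

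Zfp961 gave 259, 435 and 149 at GV, 875, 574 and 313 at MI, and 1627, 1160.1 and 1310.4 at MII. MII was above all the rest and GV and MI overlapped. It rose by 2.32 (SE 0.46, adjusted p = 0.0133) from GV, and the adjusted p was at most 0.0454 with any 1 array left out.

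The other 3 did not pass. Zfp568, a repressor of a placental Igf2 transcript, had 2.19 with an SE of 1.00 (adjusted p = 0.217), and its MI 1 array read 1722 against 150.1 and 84.7. Zfp445, which protects imprinted regions after fertilisation, had -0.18 with an SE of 1.05 (adjusted p = 0.952). Its 2 other probe sets, with means of 189 and 139, had differences of 1.07 and 0.95, in the opposite direction. Zfp932, a repressor of endogenous retroviruses, had 0.44 (adjusted p = 0.767).

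**Figure D5:**
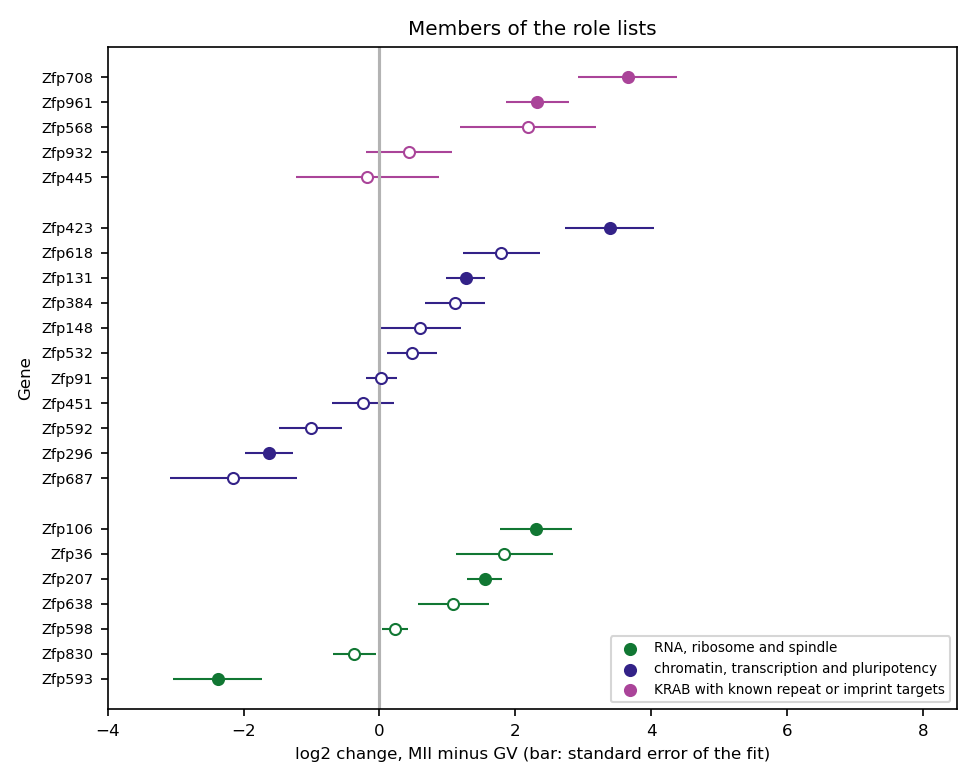
Log2 change from GV to MII (x axis) of the 23 members in the 3 role lists, with the standard error of the fit as bars; filled points were called and open points were not. The filled points to the right of 0 are Zfp106, Zfp207, Zfp423, Zfp131, Zfp708 and Zfp961, and those to the left Zfp593 and Zfp296.

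Of 34 genes listed for the KRAB co-repressor and its partners, 30 were measured. Between GV and MI none passed the test; Setdb1, the histone methyltransferase that TRIM28 recruits, had 0.71 (SE 0.26, adjusted p = 0.625). Between MI and MII 0 rose and 2 fell, Dnmt1 with a change of -1.31 (SE 0.20, adjusted p = 0.00816) and Sumo3 with -3.33 (SE 0.55, adjusted p = 0.00987); among genes at or above the minimum 5.21% rose and 15.6% fell. Between GV and MII 5 of the 30 rose, 4 fell and the median change was -0.32. Over genes at or above the minimum, 11.8% rose and 20.3% fell, with a median of -0.25. Of the 30, 26 were at or above that minimum, so the sets are not alike. With so few calls, the list is not shown to differ from these shares. Trim28 itself was bright and not called, with 1321 ± 235 at GV, 1750.0 ± 116 at MI and 2095 ± 480.2 at MII (SD, n = 3) and a GV to MII change of 0.65 (SE 0.24, adjusted p = 0.135). Setdb1 had 0.74 (SE 0.26, adjusted p = 0.103) over the same interval.

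The 5 cofactor genes that rose between GV and MII were Smarcad1, Rbbp7, Gatad2b, Suv39h2 and Morc3. Smarcad1, a chromatin remodeller that works with TRIM28, rose by 3.19 (SE 0.60, adjusted p = 0.0107), and Rbbp7, a histone chaperone, by 1.29 (SE 0.25, adjusted p = 0.0119). These 2 were called in every fit with 1 array left out. Gatad2b rose by 1.38 and was lost without GV 2, GV 3, MII 1 or MII 3, with an adjusted p of up to 0.0873. Suv39h2 rose by 1.60 and was lost without GV 2, GV 3, MII 1, MII 2 or MII 3, with an adjusted p of up to 0.0849. Morc3 rose by 2.83 (adjusted p = 0.0498) and was lost without GV 2, GV 3, MI 1, MI 2, MII 1, MII 2 or MII 3, with an adjusted p of up to 0.153.

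The 4 that fell were Sumo3, Dnmt1, Mta1 and Hdac2. Dnmt1, the maintenance DNA methyltransferase, had -1.23 (SE 0.20, adjusted p = 0.00661), and Sumo3, a modifier of TRIM28 and other proteins, -3.39 (SE 0.55, adjusted p = 0.00601). Both were called in every fit with 1 array left out. Mta1 had -2.14 and was lost without GV 1, GV 2, GV 3, MII 2 or MII 3, with an adjusted p of up to 0.0839. Hdac2 had -1.19 and was lost without GV 1, GV 2, MII 1, MII 2 or MII 3, with an adjusted p of up to 0.0838.

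The 10 brightest members by mean intensity were Zfp655, Zfp91, Zfp212, Zfp131, Zfp957, Zfp46, Zfp979, Zfp598, Zfp592 and Zfp574. Intensities of different probe sets are not levels of mRNA and give no order between genes. Of the 10, Zfp131, Zfp957 and Zfp46 were called. Zfp655 had means of 1402 ± 253, 1927 ± 767 and 2769 ± 375 at GV, MI and MII (SD, n = 3), no call and a GV to MII difference of 0.98 (SE 0.32, adjusted p = 0.0873). Zfp212 and Zfp979 had 0.09 and 0.94. Zfp574 read 1660.1, 1743 and 910.0 at GV, 1505, 1549 and 348 at MI, and 413, 362 and 375 at MII, and its MII arrays with MI 3 lay below the other 5. Its change from GV was -1.81 (SE 0.56, adjusted p = 0.0704). A second Zfp574 probe set, at a mean of 627, had a difference of 0.42, and another, at a mean of 209, had -0.45. The probe sets of Zfp574 thus differ in direction.

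Among the called members, probe sets could be compared where a gene had several. A second probe set at or above the median signal of 50.7 existed 5 times for risers between GV and MII, and 4 of the 5 had a difference of the same sign as the brightest. Between MI and MII there were 4 such probe sets for risers, and 1 had the same sign. They came from Zfp618 (0.23, -0.11 and -0.06) and Zfp612 (-0.02) alone, so they are not 4 separate genes. Where the brightest probe set was not called between GV and MII, 30 of 46 other probe sets at or above that signal had its sign. More than 1 probe set existed for 59 members.

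Zinc finger genes often lie in clusters made by gene duplication. The members lay on 20 chromosomes, 34 of them on chromosome 7. Runs of members with at most 4 protein-coding genes between neighbours numbered 13 and held 40 members, the longest with 7. Of 27 adjacent pairs in these runs, 16 had differences of the same sign between GV and MII and 17 between MI and MII. Over all members, 69.2% and 62.4% had a change above 0 in these comparisons, so many pairs share a sign wherever they lie. Pairs of members that are not neighbours were not compared. The median absolute difference between neighbours in the GV to MII change was 1.06. In the run of 7 on chromosome 7, changes from GV to MII ranged from -0.15 (Zfp61) to 2.07 (Zfp235). Of the 40 members in runs, 6 were called, each in a run where its neighbours had no call. Over all members, 31 (26.5%) were called and 86 (73.5%) were not, so uncalled neighbours are common wherever a member lies. Whether calls differ between members in runs and the others was not tested.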

How the data were processed

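The deposited table held 1 linear intensity for each probe set and array, as the authors made it; the method of probe summary, background correction and array scaling is not given in the sources used here. Per the labels' protocols, RNA was amplified with a system made for degraded RNA before hybridisation to Affymetrix Mouse Genome 430 2.0 arrays. Of 45101 probe sets, 64 controls were left out, 34945 others had 1 gene symbol in the platform annotation, 932 several and 9160 none. A gene was represented by its one-symbol probe set with the highest mean intensity (18193 genes, 18032 in RefSeq). With limma 3.58.1 in R 4.3.3, 1 model of 3 stage means was fitted to log2(intensity + 16), which understates changes of dim genes, and p-values were adjusted over all genes. The script was tested on simulated data. The number of arrays limits the precision.

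The members, role lists and cofactor list were chosen with earlier results of these data known, so no list was given a test or a p of its own. Genes were named by this rule: per comparison, the 10 largest called rises and falls with no overlap of arrays, or the 5 smallest p where none was called; the 10 brightest members; the role list members; called cofactors, or the 1 with the smallest p; and the 3 genes on each side of the minimum. Zfp180, Zfp319, Zfp653 and Zfp61 were named after their values were seen. An unlisted zinc finger gene is not reported here. Alternatives were pseudocount 1, 3 scalings, the mean of all probe sets, a low-signal filter, an intensity trend, a replicate block and each array left out.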

Additional observations from a re-analysis of the deposited data

How the results depend on the processing

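The median change of the members stayed above 0 in all 3 comparisons under each alternative that gave one. Rises from MI to MII numbered 12 and became 5 with a pseudocount of 1, 7 when a gene's probe sets were averaged and 7 with an intensity trend. Leaving out 1 array gave 3 to 12 rises and 0 to 4 falls from MI to MII, 15 to 25 rises and 1 to 6 falls from GV to MII, and 8 to 21 members in the F test. The F test called 13 members with a pseudocount of 1. With the replicate block, falls from MI to MII numbered 2 instead of 4, and no other count moved by over 1.5 times. The calls lost with the block were the MI to MII rises of Zfp692, Zfp618 and Zfp866, the MI to MII falls of Zfp593 and Zfp428 (adjusted p = 0.0548 and 0.0516), and, from GV to MII, Zfp760, Zfp597, Morc3 and Zfp593 (0.0826). Whether replicate numbers pair the arrays was not settled: 3 of 9 same-numbered pairs correlated above 0.1, while 7 of 9 arrays correlated best with their own number. The main fit took no account of such a pairing. Counting all 304 zinc finger genes with no minimum, an alternative chosen after seeing the data, gave 7 falls from MI to MII and 1 gene whose steps differed. Taking the probe set with the highest mean log2, also chosen after seeing the data, changed no count by over 1.5 times. The cause of these changes was not tested. Protein features were not run. Most probe sets lie near background, and 37 of 117 members read 100 or more on every array, so changes of the others rest in part on dim readings.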
